A study of Danio rerio with 4 samples.

Results

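Genes of fibroblast growth factor (FGF) signalling were followed in cells sorted from zebrafish embryos: the ligand genes fgf3, fgf8a, fgf10a and fgf24, the feedback inhibitor genes spry1, spry2, spry4 and dusp6, and the ETS transcription factor genes etv4 and etv5b. They were chosen by symbol as ligands and feedback targets of the pathway. Of these 10 symbols, 8 matched 1 Ensembl gene ID each, several under a name in capitals such as FGF3 or DUSP6, which the plots keep. The other 2, fgf8a and fgf10a, matched 2 IDs each, because the gene names used here give FGF8 to 2 IDs and FGF10 to 2 IDs and do not say which of each pair is the a copy. Both IDs of each pair are therefore given, and neither is counted again in the further pathway lists. At most 1 ID of each pair is the chosen gene, so counts over the IDs described include genes outside the 10 symbols. In this way 12 of the 25873 IDs in the table are described. All 12 had enough counts to be tested, among 19084 IDs tested in all.

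All embryos were of the line Tg(nkx2.5:ZsYellow), whose transgene uses nkx2.5 regulatory sequence to drive a yellow fluorescent protein, on a background given only as a laboratory strain. At the stage of 14 to 16 somites their cells were separated and passed through a fluorescence sorter. Libraries of ZsYellow-positive cells (2 replicates) hold what the submitters call cardiopharyngeal progenitors and cardiomyocytes, and those of ZsYellow-negative cells (2 replicates) hold the remaining cells of embryos with the same transgene. The reporter marks any cell that has made ZsYellow, so the positive fraction is a mixture, and the negative fraction is the remainder of a whole embryo and not one tissue. Library totals ran from 31996733 to 40133331 counts. Nothing in the labels says that the replicates came from separate batches of embryos, so p-values measure only the spread between these libraries.

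FGF ligands are secreted proteins that bind receptor tyrosine kinases and switch on the RAS-MAPK cascade. The cascade activates ETS factors such as Etv4 and Etv5b, whose genes are themselves induced, and it induces Sprouty proteins and the ERK phosphatase Dusp6, which damp the signal. In zebrafish, fgf8a (the acerebellar gene) is needed for early heart induction and for the midbrain-hindbrain boundary, fgf3 acts with it in the pharyngeal pouches and hindbrain, and fgf10a and fgf24 act in the pectoral fin bud. In the mouse, Fgf10 marks progenitors of the second heart field.

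The labelled cell types were set against marker lists. Of all tested IDs, 9.02% were called higher in positive cells and 8.07% lower, by the rule given below. The summed level of the cardiomyocyte list was 2983 and 3346 TPM (a level scaled by transcript length and library depth) in positive libraries and 75.0 and 54.8 TPM in negative libraries. Of its 6 tested IDs, 5 were called higher and 1 lower, a rare ID named MYH6 (ENSDARG00000114031, log2 fold change -1.91). The 9 cardiopharyngeal markers were all called higher, at a summed 929.5 and 860.2 TPM in positive and 173.2 and 167.4 TPM in negative libraries. Markers of other embryonic regions differed in direction. The midbrain-hindbrain boundary list summed to 24.9 and 24.4 TPM in positive and 100.1 and 105.2 TPM in negative libraries, with 8 of 9 genes called lower. The tailbud and presomitic list summed to 66.0 and 55.1 TPM in positive and 584.6 and 563.0 TPM in negative libraries, with 7 of 8 called lower. The hindbrain list summed to 126.3 and 130.4 TPM in positive and 109.1 and 96.2 TPM in negative libraries, and none of its 4 genes was called lower. Only hoxb1a was called higher (log2 fold change 1.87), at 64.3 and 52.0 TPM in positive and 18.4 and 14.3 TPM in negative libraries. HOXB2 was at 0.77, and egr2b and hoxa2b went the other way, at -0.35 and -0.62, with no call. Of 5 endoderm markers, foxa2 was called higher and foxa3 lower, and the list summed to 39.2 and 30.3 TPM in positive and 31.6 and 32.1 TPM in negative libraries. The blood list summed to 143.6 and 149.4 TPM in positive and 2213 and 1976 TPM in negative libraries, with 5 of 5 genes called lower. The somite list summed to 125.8 and 89.5 TPM in positive and 527.4 and 507.4 TPM in negative libraries, with 4 of 5 genes called lower. The epidermis list summed to 762.4 and 604.7 TPM in positive and 1358 and 1015 TPM in negative libraries, with 1 of 5 genes called lower. The markers vmhc, mafba and fli1a matched no ID by name, so no value is given under those names. No matched marker was at 0 in all 4 libraries, and the part that such cells have in the results below was not tested.

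Of the 12 IDs, 5 were higher in positive cells, 1 was lower and 6 did not pass the test. The genes that rose were the 2 FGF10 IDs, the abundant FGF8 ID, dusp6 and etv4, and the gene that fell was fgf24. A gene was called at a Benjamini-Hochberg adjusted p under 0.05 in edgeR's quasi-likelihood test over all 19084 IDs. By that rule 17.1% of all tested IDs were called, made up of 9.02% of all tested IDs that were higher and 8.07% that were lower. In TPM, 6 of the 12 had both positive libraries above both negative ones and 1 had both below, which held for 24.9% and 30.0% of all tested IDs. The median log2 fold change of positive over negative was 0.73 over the 12 IDs and -0.009 over all IDs tested. In bulk libraries of sorted cells, fewer cells that express a gene and less RNA per cell cannot be told apart.

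**Figure D1:**
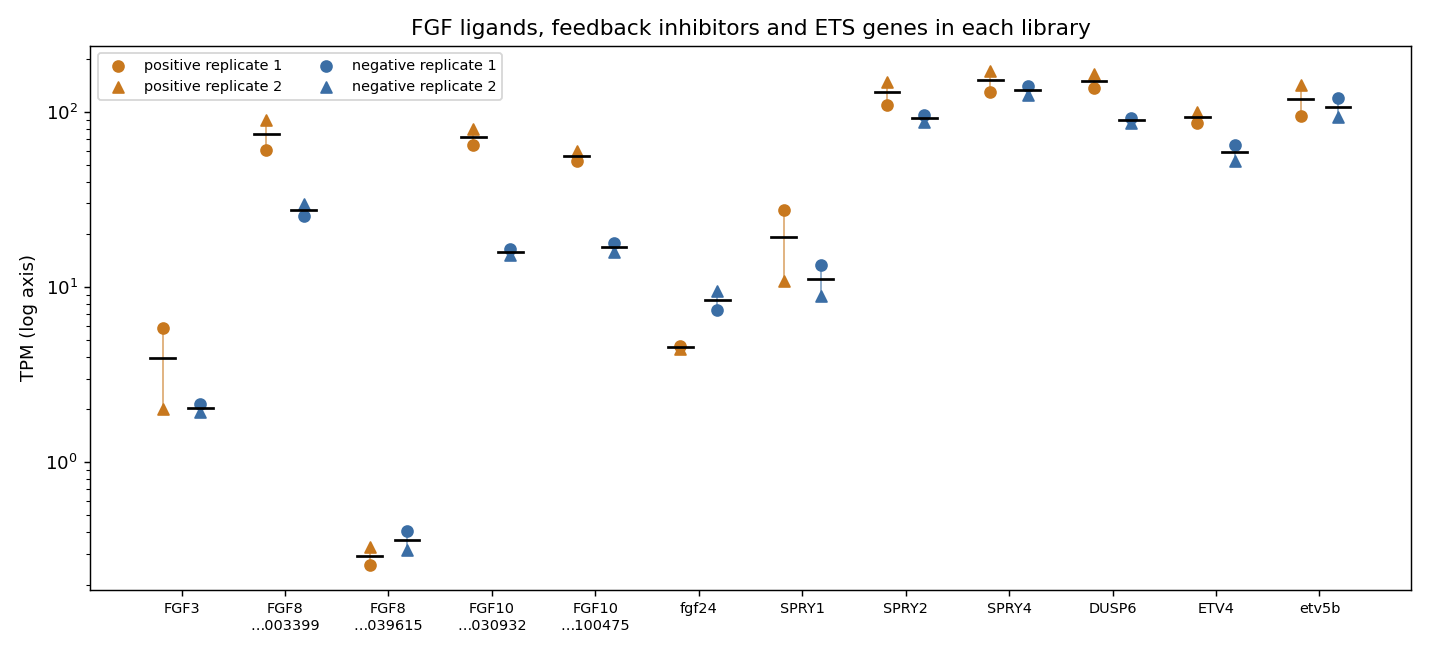
TPM (log axis) of the 12 IDs in each library, with positive libraries (orange) left of negative libraries (blue) for each gene; circles are replicate 1, triangles replicate 2 and black bars the mean of a group, and the digits under FGF8 and FGF10 end their Ensembl IDs. Positive libraries lie above negative ones without overlap for one FGF8 ID, both FGF10 IDs, SPRY2, DUSP6 and ETV4, and below them for fgf24.

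Both FGF10 IDs were higher in positive cells, and by more than any other gene of the 12. ENSDARG00000030932 had 64.4 and 79.4 TPM in positive libraries and 16.5 and 15.3 TPM in negative libraries. The groups lay far apart, and the replicates of each were close. Behind these levels stood 3255 and 4634 counts in positive and 848 and 842 counts in negative libraries. The log2 fold change was 2.20 (edgeR SE 0.175, adjusted p 7.79e-05), or 4.59-fold. ENSDARG00000100475 had 52.3 and 59.9 TPM in positive libraries and 17.9 and 15.8 TPM in negative libraries. Its log2 fold change was 1.69 (edgeR SE 0.167, adjusted p 0.000238), or 3.22-fold, again with no overlap of the groups. In negative cells the levels of the 2 IDs overlapped, and in positive cells ENSDARG00000030932 was the higher in level. Each stayed called in 14 of 14 alternatives, with a log2 fold change between 2.10 and 2.31 for the first and between 1.59 and 1.75 for the second.

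The names FGF8 covered 1 abundant and 1 rare ID. The abundant one, ENSDARG00000003399, had 60.4 and 89.6 TPM in positive libraries and 25.3 and 29.6 TPM in negative libraries. Each positive library exceeded each negative one, although the positive replicates differed more from each other than the negative ones did. The log2 fold change was 1.48 (edgeR SE 0.203, adjusted p 0.00125), or 2.78-fold, and it stayed called in 14 of 14 alternatives, at 1.27 to 1.69. The rare ID, ENSDARG00000039615, had only 15 and 22 counts in positive and 24 and 20 counts in negative libraries, which is 0.259 and 0.328 TPM against 0.403 and 0.317 TPM. The groups overlapped, and the log2 fold change of -0.27 had a 95% interval from -1.37 to 0.84 (adjusted p 0.769 in edgeR). A change in either direction within that interval was not excluded at this depth.

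The ligand gene fgf24, which belongs to the same subfamily as fgf8a, moved the other way. It had 4.62 and 4.45 TPM in positive libraries and 7.44 and 9.46 TPM in negative libraries. The positive libraries were nearly equal and lay below both negative ones. The log2 fold change was -0.89 (edgeR SE 0.244, adjusted p 0.0369), or 0.540-fold. Without negative replicate 2 the log2 fold change was -0.60 and was not called. Without negative replicate 1 it was -1.13 and stayed called, so between these fits the call depended on negative replicate 2. With either negative library left out, fewer of all tested IDs were called, and with either positive library left out, more were. On the TPM scale limma did not call fgf24 either (adjusted p 0.0806 and 0.065 with a pseudocount of 1 and 0.1).

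For fgf3, the 2 positive libraries disagreed. It had 5.87 TPM in positive replicate 1 and 2.02 TPM in positive replicate 2, against 2.15 and 1.93 TPM in negative libraries. Positive replicate 1 stood above the other 3 libraries, and positive replicate 2 lay between the negative ones. The log2 fold change was 1.00 (SE 0.473, 95% interval -0.07 to 2.07, edgeR adjusted p 0.196). It was -0.025 without positive replicate 1 (adjusted p 0.98) and 1.61 without positive replicate 2 (adjusted p 1.04e-05 in edgeR), so the direction rests on a single library.

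**Figure D2:**
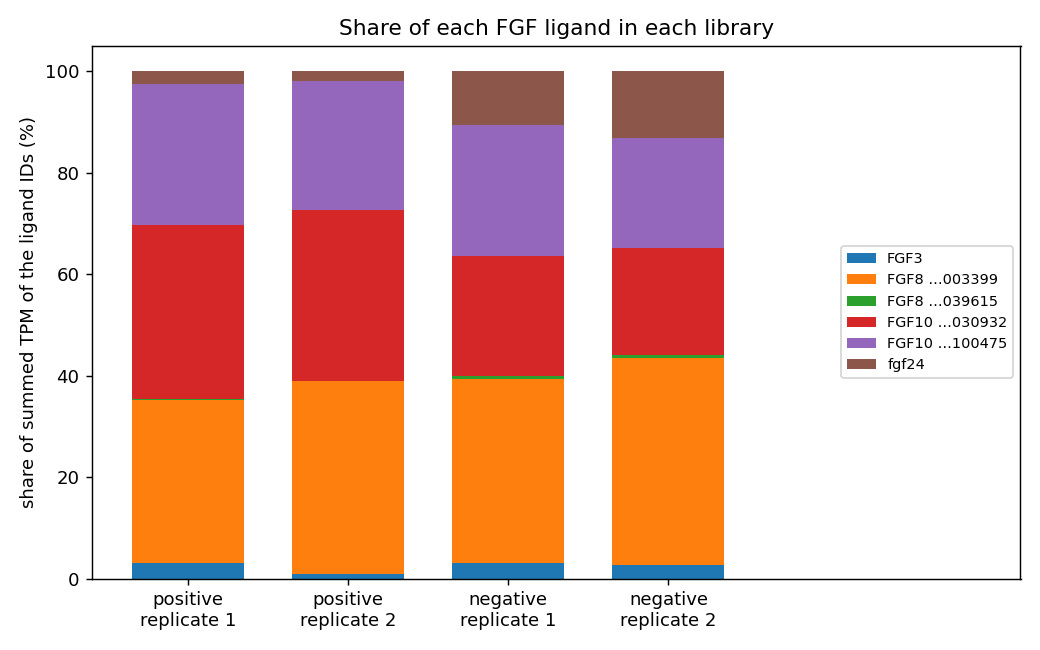
Share of each ligand ID in the summed TPM of the 6 ligand IDs, in percent, with 1 bar per library and the positive libraries on the left. FGF8 and the 2 FGF10 IDs fill most of each bar, and fgf24 takes 2.46% and 1.89% in positive libraries and 10.7% and 13.1% in negative libraries.

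The summed level of the 6 ligand IDs was 187.9 and 235.6 TPM in positive libraries and 69.7 and 72.4 TPM in negative libraries. The make-up of that sum also differed. ENSDARG00000030932 (FGF10) held 34.0 ± 0.420% in positive cells and 22.4 ± 1.78% in negative cells (SD, n = 2 each). The share of fgf24 was 2.17 ± 0.406% in positive and 11.9 ± 1.69% in negative cells. For both, the libraries of the groups did not overlap. The abundant FGF8 ID held 35.1 ± 4.12% in positive and 38.6 ± 3.24% in negative cells, and the other FGF10 ID held 26.6 ± 1.70% in positive and 23.7 ± 2.75% in negative cells. For both of these the libraries overlapped. These shares are given as a description and were not tested. A share falls when the other IDs in the sum rise, so the share of fgf24 fell by more than its level did.

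Among the feedback inhibitors, only dusp6 passed the test. The gene dusp6, which encodes a phosphatase of ERK, had 137.1 and 163.7 TPM in positive libraries and 92.8 and 86.8 TPM in negative libraries. The groups did not overlap, and the negative replicates were close. Its log2 fold change was 0.76 (edgeR SE 0.170, adjusted p 0.0153), or 1.69-fold. The call was lost without negative replicate 1 (log2 fold change 0.72) and without negative replicate 2 (0.81), while the size hardly moved. In both of those fits fewer of all tested IDs were called as well.

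The 3 Sprouty genes encode membrane-associated inhibitors of the RAS-MAPK branch, and none of them was called. The gene spry2 had 109.9 and 148.7 TPM in positive libraries and 95.7 and 88.1 TPM in negative libraries. Each positive library exceeded each negative one. The gene had a log2 fold change of 0.53 (SE 0.182, 95% interval 0.12 to 0.94 without adjustment, edgeR adjusted p 0.0831). It was called without positive replicate 1 (0.71) but not without positive replicate 2 (0.35). In both of those fits more of all tested IDs were called. The gene spry4 had the highest mean level of the 12 in both groups, although dusp6 was above it in positive replicate 1. It had 130.4 and 171.9 TPM in positive libraries and 140.8 and 124.4 TPM in negative libraries. These ranges overlapped, and the log2 fold change of 0.21 had a 95% interval from -0.20 to 0.61 (adjusted p 0.502 in edgeR). The gene spry1 was lower in level and behaved as fgf3 did, with 27.6 TPM in positive replicate 1 and 10.8 TPM in positive replicate 2, against 13.3 and 8.88 TPM in negative libraries. Positive replicate 1 was again the library that stood apart. The log2 fold change of spry1 was 0.85 (SE 0.413, 95% interval -0.09 to 1.78, edgeR adjusted p 0.209), -0.046 without positive replicate 1 and 1.41 without positive replicate 2.

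Of the ETS genes, etv4 rose and etv5b did not pass the test. Both encode transcription factors of the PEA3 group, which act downstream of FGF receptors. The gene etv4 had 86.3 and 100.4 TPM in positive libraries and 64.7 and 52.6 TPM in negative libraries. The groups were separate, with a log2 fold change of 0.70 (edgeR SE 0.165, adjusted p 0.0193), or 1.62-fold. The call was lost without negative replicate 1 (0.75) and without negative replicate 2 (0.66), fits in which fewer of all tested IDs were called. With limma on TPM etv4 was not called either (0.67, adjusted p 0.0518 and 0.053 with a pseudocount of 1 and 0.1). The gene etv5b had 95.2 and 142.1 TPM in positive libraries and 119.7 and 93.2 TPM in negative libraries. Its groups overlapped, and the log2 fold change of 0.18 had a 95% interval from -0.27 to 0.63 (adjusted p 0.61 in edgeR). Without positive replicate 2 it was -0.053. The ETS genes etv1 and etv5a, from the further pathway lists, had log2 fold changes of -0.28 and 0.80. Neither was called (adjusted p 0.574 and 0.0643 in edgeR), and the groups of etv5a overlapped.

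**Figure D3:**
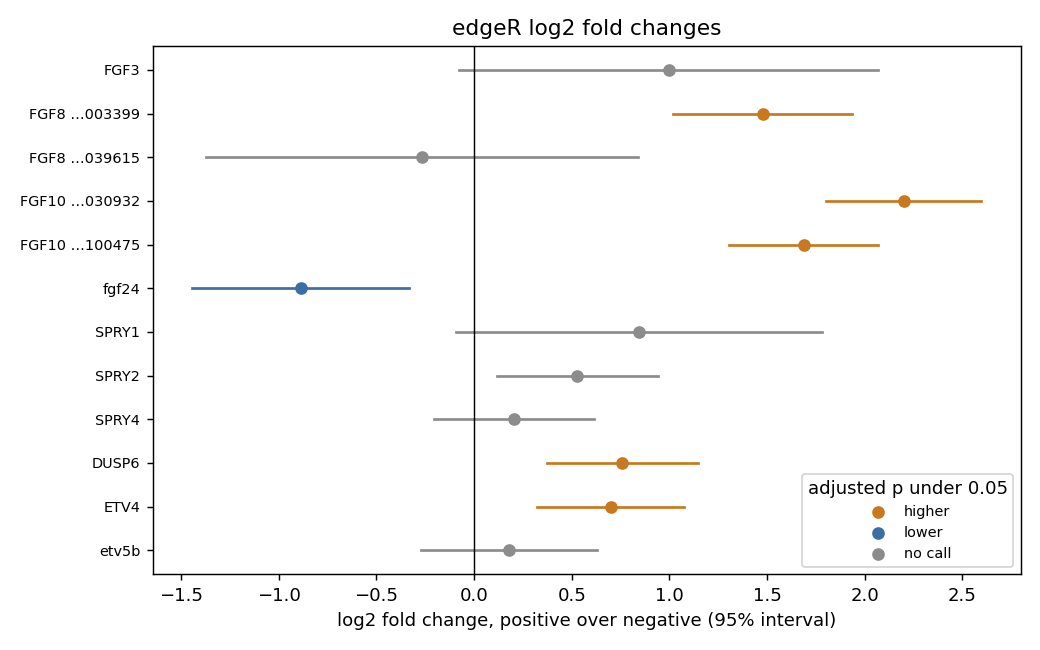
Log2 fold change of positive over negative cells from edgeR with its 95% interval for each ID, coloured by whether the adjusted p was under 0.05 (orange higher, blue lower, grey no call). The intervals are not adjusted for the number of IDs tested. The FGF10 IDs and the abundant FGF8 ID lie highest, at 2.20, 1.69 and 1.48, ahead of DUSP6 and ETV4 at 0.76 and 0.70, and fgf24 lies lowest at -0.89.

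**Figure D4:**
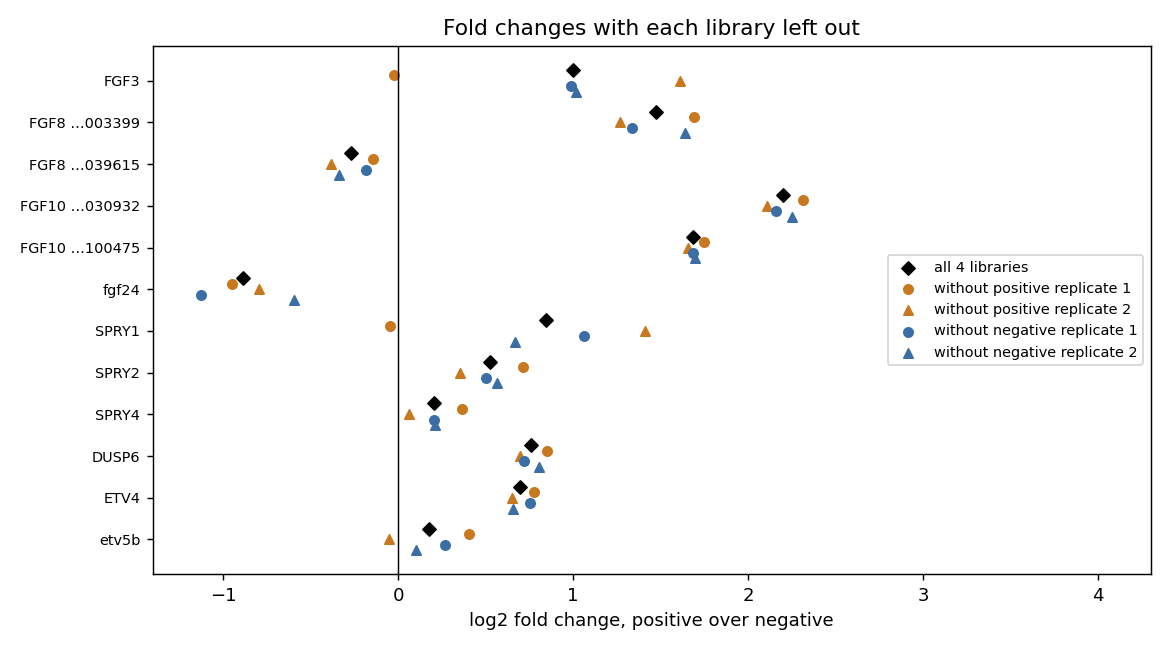
Log2 fold change of positive over negative cells with all 4 libraries (black diamonds) and with each library left out in turn (orange, a positive library out; blue, a negative library out). FGF3 and SPRY1 drop to -0.025 and -0.046 without positive replicate 1, whereas both FGF10 IDs stay between 1.65 and 2.31.

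Ordered by mean TPM, the response genes other than spry1 stood above the ligands. In positive cells spry4 (151.1 ± 29.4 TPM, SD, n = 2 as in the values that follow), dusp6 (150.4 ± 18.9), spry2 (129.3 ± 27.4), etv5b (118.6 ± 33.2) and etv4 (93.3 ± 9.94) came first, each overlapping the next. Then followed FGF8 ENSDARG00000003399 (75.0 ± 20.6), whose libraries overlapped those of etv4 and of the next ID, FGF10 ENSDARG00000030932 (71.9 ± 10.6). The other FGF10 ID (56.1 ± 5.39) and spry1 (19.2 ± 11.9) were each separate from their neighbours, and fgf24 (4.53 ± 0.126) and fgf3 (3.95 ± 2.72) overlapped. In negative cells dusp6 (89.8 ± 4.29 TPM) came after spry4 (132.6 ± 11.6), etv5b (106.4 ± 18.7) and spry2 (91.9 ± 5.41), and it overlapped spry2 but not etv4. The FGF8 ID (27.5 ± 3.03 TPM) was there separate from both neighbours, etv4 (58.6 ± 8.55) above it and the FGF10 pair (16.8 ± 1.51 and 15.9 ± 0.844) below it. The spry1 gene (11.1 ± 3.14) and fgf24 (8.45 ± 1.42) overlapped, and fgf3 (2.04 ± 0.157) followed. The rare FGF8 ID was lowest in both groups.

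The rest of the pathway was read from 5 further lists with 67 IDs, of which 62 were tested. Of these, 8 were called higher and 6 lower, where 9.02% and 8.07% of all tested IDs were called in those directions. The median log2 fold change was 0.22. The highest and lowest log2 fold changes among the 62 were those of other secreted FGFs. Of 15 tested IDs in that list, 3 were higher and 3 were lower, and the median was -0.94. The ID at the median, with 8 to 18 counts in a library, was not called. Nor was the lowest ID, with 3 to 21 counts. One of the 2 IDs named FGF20, ENSDARG00000086070, had 24.3 and 29.8 TPM in positive libraries and 2.83 and 1.80 TPM in negative libraries, a log2 fold change of 3.57 (edgeR SE 0.254, adjusted p 4.82e-05). The other, ENSDARG00000007356, fell, with 1.04 and 1.77 TPM in positive and 7.33 and 5.96 TPM in negative libraries (log2 fold change -2.22). FGF5 had 11.1 and 12.7 TPM in positive and 2.35 and 1.57 TPM in negative libraries (log2 fold change 2.62), and FGF22 had 8.74 and 16.1 TPM in positive and 3.79 and 4.20 TPM in negative libraries (log2 fold change 1.62). All of these encode secreted ligands, and they moved in opposite directions. The ligand gene fgf17, of the FGF8 subfamily, fell to 11.1 and 12.6 TPM in positive libraries, against 31.4 and 28.9 TPM in negative libraries (log2 fold change -1.22), and FGF4 fell to 0.678 and 0.735 TPM in positive libraries, against 2.87 and 2.12 TPM in negative libraries (log2 fold change -1.79). The edgeR adjusted p-values of these last 5 genes lay between 0.000771 and 0.0148. FGF22 alone of them lost its call when either negative library was left out, fits in which fewer of all tested IDs were called.

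**Figure D5:**
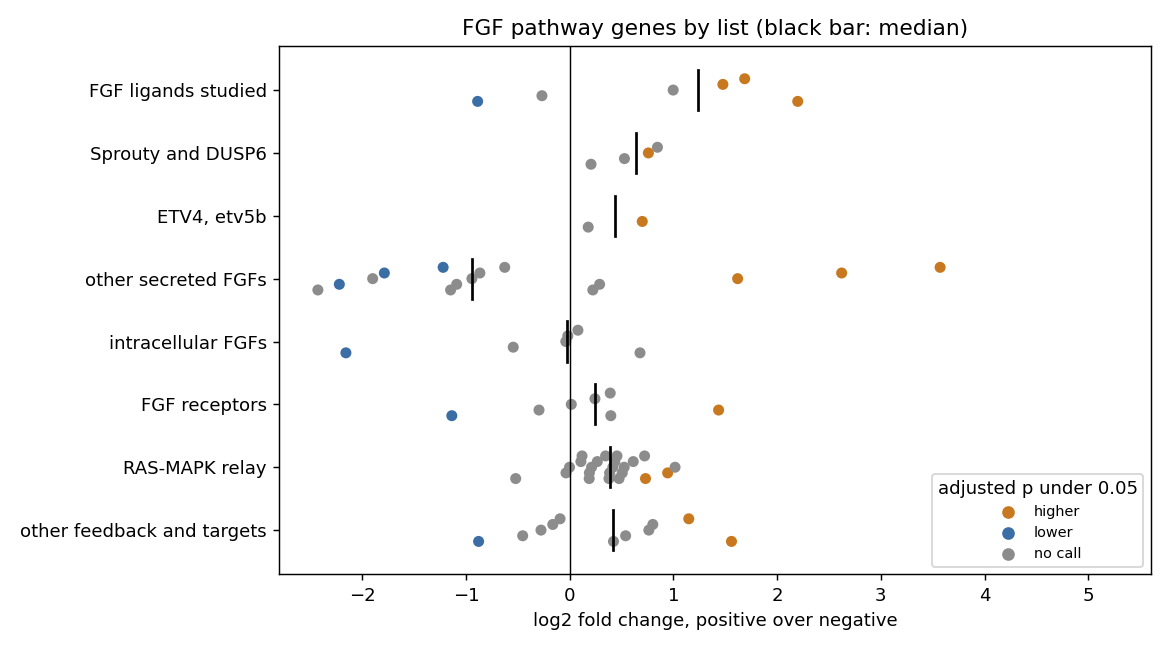
Log2 fold change of positive over negative cells for each tested ID of the FGF pathway, 1 row per list, with the median of a list as a black bar and calls at an adjusted p under 0.05 in orange (higher) and blue (lower). The other secreted FGFs lie between -2.43 (an ID with 3 to 21 counts and no call) and 3.57, and the RAS-MAPK relay genes lie between -0.52 and 1.02.

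Of 7 receptor genes, fgfrl1b was higher and FGFR3 was lower, where 9.02% and 8.07% of all tested IDs were called in those directions. The gene fgfrl1b, which encodes a receptor-like protein without the kinase domain, had 28.0 and 28.6 TPM in positive libraries and 11.6 and 9.58 TPM in negative libraries (log2 fold change 1.44, edgeR SE 0.169, adjusted p 0.000555). FGFR3 had 9.02 and 8.59 TPM in positive and 21.6 and 15.3 TPM in negative libraries (log2 fold change -1.14, edgeR SE 0.172, adjusted p 0.00213). The receptor gene with the highest mean TPM over the 4 libraries, fgfr4, had 28.8 and 38.1 TPM in positive and 49.5 and 36.4 TPM in negative libraries, which overlapped (adjusted p 0.321 in edgeR), and FGFRL1 had a log2 fold change of 0.24 (adjusted p 0.381 in edgeR). The 5 receptors that were not called had log2 fold changes between -0.30 and 0.40.

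In the RAS-MAPK relay, 2 of 23 genes were higher and none lower, against 9.02% and 8.07% of all tested IDs, so the number higher was near the share over all IDs. The median log2 fold change was 0.38. In TPM, 10 of the 23 had both positive libraries above both negative ones, and 0 had both below. These patterns held for 24.9% and 30.0% of all tested IDs. The GTPase gene kras had 52.5 and 68.2 TPM in positive libraries and 33.0 and 39.6 TPM in negative libraries (log2 fold change 0.73, adjusted p 0.0421 in edgeR). Its call was lost without negative replicate 1, negative replicate 2 or positive replicate 2, and with upper-quartile scaling (adjusted p 0.0725 in edgeR). With limma on TPM kras was not called either (adjusted p 0.0559 and 0.056 with a pseudocount of 1 and 0.1). NRAS was not called (0.38, adjusted p 0.228 in edgeR), except without positive replicate 1 (0.62). Of the 7 intracellular FGFs, which are not secreted, 6 were tested and 1 was called, where 17.1% of all tested IDs were called. This was an FGF13 ID (ENSDARG00000056633) at 0.744 and 0.253 TPM in positive and 2.69 and 2.30 TPM in negative libraries (log2 fold change -2.16, edgeR adjusted p 0.0101). It lost its call when either negative library was left out, fits in which fewer of all tested IDs were called. The other FGF13 ID and FGF12 ENSDARG00000113525 had log2 fold changes of 0.08 and -0.04 and were not called.

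Among 11 tested feedback and target genes outside the 10 symbols, 2 were higher and 1 was lower, against 9.02% and 8.07% of all tested IDs. DUSP5, an ERK phosphatase gene that is known in zebrafish angioblasts, was the most abundant gene of the pathway lists, with 429.4 and 582.9 TPM in positive libraries and 250.1 and 211.4 TPM in negative libraries (log2 fold change 1.15, edgeR SE 0.188, adjusted p 0.00316). Beside it, 3 of 4 endothelial markers were called higher without overlap of the groups, kdrl by 4.08-fold, cdh5 by 5.03-fold and TIE1 by 3.96-fold. The other marker, etsrp, had 242.5 and 304.3 TPM in positive and 324.4 and 283.0 TPM in negative libraries and was not called (adjusted p 0.773 in edgeR). Being the most abundant of the list, it made up most of the sum, which was 329.1 and 449.6 TPM in positive and 356.4 and 304.3 TPM in negative libraries. The part of endothelial cells in the level of DUSP5 was not tested. DUSP7 had 11.2 and 4.04 TPM in positive and 2.5 and 2.63 TPM in negative libraries (log2 fold change 1.56, edgeR adjusted p 0.0318). It was 0.66 and not called without positive replicate 1. It was also not called without negative replicate 1 or 2, or with limma on TPM (adjusted p 0.102 and 0.0791). DUSP2, the gene of another MAPK phosphatase, fell to 13.7 and 11.8 TPM in positive libraries, against 20.3 and 26.9 TPM in negative libraries (log2 fold change -0.88, edgeR adjusted p 0.0288). That call was lost without negative replicate 2 (-0.55). FLRT3, whose product is a membrane partner of FGF receptors, was not called (-0.45, adjusted p 0.166 in edgeR).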

How the data were processed

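Per the labels' protocols, RNA from sorted cells was reverse-transcribed from the poly(A) tail in a low-input kit, tagmented and sequenced as read pairs on a HiSeq2500. Per the submitters' processing notes, Salmon 1.2.1, BWA 0.7.12-r1039 and bedtools were used and the builds Zv9 (danRer7) and GRCz11 (danRer11) are named, without their roles. The deposited table holds 25873 Ensembl IDs. Per the file headers it gives a whole-number count, taken to be an estimated count rounded by the authors (20 entries had a count of 0 and a TPM above 0), and log2(TPM + 1) as deposited by the authors. Reads shared by paralogs, as within the FGF10 pair, may have been divided between IDs, and how strand was used is not given in the sources used here. No coordinates or sequences are printed.

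Symbols were matched without regard to case. Names came from an Ensembl name table (23599 IDs named) and from synonyms in RefSeq (GRCz12tu) held by 1 gene, or, outside the 10 symbols, the name without its final letter. Groups came from sample titles. Counts were compared with edgeR 4.0.16 (R 4.3.3; quasi-likelihood test, TMM factors, filterByExpr at a minimum count of 10 and total of 15), with Benjamini-Hochberg adjustment over the 19084 IDs tested. SE was derived from each fold change and its F statistic, and 95% intervals use it with the fit's degrees of freedom. Unlike the calls, the intervals are not adjusted for the number of IDs tested. An interval can therefore lie wholly above or below no change without a call. TPM was recovered from the log2 values. The fit was also run on simulated data, with no outcome given here, so no conclusion is drawn from that run. No molecular identifiers are mentioned, and the part of PCR copies in the counts and intervals was not measured. Alternatives used DESeq2 1.42.0 and limma 3.58.1, other scalings and filters, a replicate block and each library left out. A stricter cut-off on the main fit (adjusted p under 0.01) and a crossed block, added after seeing the data, are counted among them. Outside the 10 symbols, etv1, etv5a and the genes under Other observations are given in addition to those named by rule. The rule named the genes called and the 2 most abundant of each list. One gene that this rule names is not reported here. The genes and lists were chosen with earlier results of these data known.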

Additional observations from a re-analysis of the deposited data

How the results depend on the processing

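Both FGF10 IDs and ENSDARG00000003399 (FGF8) kept their direction and call in each of the 14 alternatives. At an adjusted p under 0.01, 3 of the 12 IDs were called higher and 0 lower, and fgf24 (-0.89), dusp6 (0.76) and etv4 (0.70) were no longer called. At that cut-off 9.17% of all tested IDs were called, against 17.1% at 0.05. Limma on log2(TPM + 1) and on log2(TPM + 0.1) called 0 lower, with fgf24 at -0.76 and -0.87 and etv4 at 0.67 and 0.67. Of all tested IDs, these limma fits called 1407 and 1422 lower, against 1541 in the main fit. With either negative library left out, fewer of the 12 IDs were called higher, and with either positive library left out, more were. The same held for all tested IDs. Leaving out each library in turn gave log2 fold changes of -0.025 to 1.61 for fgf3, -1.13 to -0.60 for fgf24, -0.046 to 1.41 for spry1, 0.35 to 0.71 for spry2, 0.70 to 0.85 for dusp6, 0.65 to 0.78 for etv4 and -0.053 to 0.41 for etv5b. A group left with 1 library is assumed to vary like the other, and the cause of lost calls was not tested.

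Over all IDs tested, 966 were higher and 784 lower at an adjusted p under 0.01, against 1721 and 1541 at 0.05, and leaving out a library gave 852 to 2446 higher and 747 to 1846 lower. Of the other pathway genes, 8 were called higher. That became 5 with limma at either pseudocount and 4 at an adjusted p under 0.01. The number called lower was 6, and became 8 with limma at either pseudocount and 4 at an adjusted p under 0.01. Over all IDs, limma with a pseudocount of 1 and 0.1 called 1264 and 1304 higher and 1407 and 1422 lower. The number of pathway genes called higher fell with either negative library left out and rose with either positive one left out. FGF12 ENSDARG00000113525 ranged from -0.20 to 0.13 with a library left out, and turned to 0.13 and 0.05 without positive replicate 2 or negative replicate 2. FGF13 ENSDARG00000035056 turned to -0.013 with upper-quartile factors, -0.071 and -0.11 with limma, and -0.68 and -0.31 without positive replicate 1 or negative replicate 2. Upper-quartile factors moved the median of all IDs to -0.109, and no ID of the 12 changed direction with them.

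The labels do not say that a replicate number marks a shared batch of embryos, and same-numbered deviations from the group means correlated at -0.134 across genes. With the replicate number as a block, 5 of the 12 IDs were higher and 1 lower, 1762 of all IDs were higher and 1561 lower, and 10 other pathway genes were higher and 7 lower. A crossed block, added after seeing the data, called 5 and 1 of the 12 IDs, 2181 and 1829 of all IDs, and 13 and 7 of the other pathway genes. Depth limits the rare FGF8 ID, at 15 to 24 counts.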

Other observations

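The library that set fgf3 and spry1 apart also differed from its replicate at other genes of the pathway, which were picked here after their values were seen. Among IDs with a mean of at least 1 CPM (counts scaled to library size), 2 of 11 described above and 6 of 52 in the other pathway lists differed more than 2-fold between the positive replicates, against 5.99% of all 15870 such IDs. The log2 ratio of positive replicate 2 over replicate 1 was -1.66 for fgf3, -1.48 for spry1, -1.49 for DUSP7, -1.30 for SPRED1 and -1.21 for MAPK3. It was -1.31 and -1.37 for the FGF13 IDs and 1.31 for fgf1a. Between the negative replicates 0 of the 11 and 1 of the 52, BRAF at 1.27, differed as much, against 2.52% of all. FGF13 ENSDARG00000035056, at -1.31 between the positive replicates, came close there, at -0.98 (replicate 2 over replicate 1). SPRED1, a Sprouty-related inhibitor gene, had 14.6 and 7.28 TPM in positive and 7.94 and 6.26 TPM in negative libraries. MAPK3, which encodes ERK1, had 34.9 and 16.4 TPM in positive and 13.5 and 12.8 TPM in negative libraries, with both positive libraries above both negative ones and no call (edgeR adjusted p 0.0717). Gaps between the positive replicates were also present outside the pathway, in either direction. The marker GATA6 had 126.3 TPM in positive replicate 1 and 62.1 TPM in positive replicate 2, and the marker egr2b had 28.0 and 54.0 TPM. What sets the positive replicates apart at these genes was not tested.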
